A study of Mus musculus with 8 samples.

Results

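Peaks of RBM45 iCLIP were described in 10 mouse genes that encode subunits of voltage-gated calcium channels. The 10 genes are Cacna1c, Cacna1d, Cacna1a, Cacna1b, Cacna1e, Cacna1g, Cacna2d1, Cacna2d3, Cacnb2 and Cacnb4, of 55450 annotated genes, of which 15995 held peaks in both replicates. A deposited peak was counted for a gene when its midpoint lay in the gene body on the gene's strand (mm10 build, GENCODE M21 annotation). By this rule the 10 genes held 1139 of 387749 distinct peaks in replicate 1 and 1122 of 344700 in replicate 2. They held 54 of the 16399 shared peaks, which are replicate 2 peaks covered over at least 50% of their width by a replicate 1 peak. The genes were chosen by their family with the peak counts of these same libraries in view, so all counts, densities, positions and folds below are descriptions without a test.

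RBM45 is an RNA-binding protein. In iCLIP, a protein is crosslinked to RNA with ultraviolet light and immunoprecipitated, and the attached RNA is sequenced. The series has 8 libraries, 2 in each of 4 groups: Mettl3 knockout CLIP, Mettl3 knockout input, WT CLIP and WT input. Values below rest on the WT CLIP peaks. The cells were WT mHippoE-2, a transformed mouse hippocampal neuron line (strain Crl:CFW(SW)-024), transduced with a lentivirus for FLAG-HA-tagged mouse RBM45, and the pull-down used an antibody against HA. The bound protein was therefore a tagged RBM45 from a transgene, which the WT and Mettl3 knockout libraries all carry. The labels do not say whether replicates 1 and 2 came from separate cultures, so the spread between them may be technical. The read depth of each library is unknown, and replicate 2 had 0.889 times as many distinct peaks as replicate 1.

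Voltage-gated calcium channels open when the membrane depolarises and let calcium into the cell. Each channel has a pore-forming α1 subunit, which sets the channel type. In most types it is joined by an intracellular β subunit and an extracellular α2δ subunit that affect trafficking to the membrane and gating. In hippocampal neurons L-type channels are known for linking activity to gene transcription, and P/Q-type and N-type channels for triggering transmitter release. The α1 genes here were Cacna1c and Cacna1d (L-type), Cacna1a (P/Q-type), Cacna1b (N-type), Cacna1e (R-type) and Cacna1g (T-type). Cacna2d1 and Cacna2d3 encode α2δ subunits, and Cacnb2 and Cacnb4 encode β subunits.

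All 54 shared peaks lay in introns, and their sequence could be read only where an annotated transcript covers the position. One of the 54 qualified, a shared peak in intron 2 of Cacnb2, which an antisense-strand transcript of Gm38273 covers. How strand was given to peaks is not stated, so whether this peak came from Cacnb2 or Gm38273 RNA cannot be told apart. The line below gives its Cacnb2-strand bases at chr2:14737730-14737769 (mm10, + strand). Base 1 to base 30 were the replicate 2 peak (fold 3.45), and the capitals mark the replicate 1 peak (fold 1.84), so that 20 bases were common to both replicates.
Cacnb2 intron 2: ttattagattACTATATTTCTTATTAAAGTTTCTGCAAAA

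No exonic peak was shared. The closest exonic pairs are shown because they are annotated exons that held peaks of both replicates at or near the same bases. In Cacna1c, the coding exon at chr6:118674555-118674614 (- strand), present in 10 of 27 annotated transcripts, lay wholly under a replicate 2 peak of 121 bp (fold 2.76). A replicate 1 peak of 30 bp (fold 1.91, in capitals) lay inside it, which covers less than the 50% of the replicate 2 peak that sharing requires. In an exon of the non-coding transcript Cacna1c-221 at chr6:118706303-118706353 (- strand), a replicate 2 peak (fold 3.18) and a replicate 1 peak (fold 2.67, in capitals) overlapped by 9 bases. In a coding exon of Cacna2d1 at chr5:16264258-16264321 (+ strand), found in 8 of 12 transcripts, a replicate 2 peak (fold 3.81) ended 8 bases before a replicate 1 peak began (fold 1.94, in capitals). All sequences are from GENCODE M21 transcripts (GRCm38), written 5′ to 3′ on the strand of the gene.
Cacna1c coding exon: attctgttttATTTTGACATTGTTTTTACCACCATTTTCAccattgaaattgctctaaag
Cacna1c-221 exon: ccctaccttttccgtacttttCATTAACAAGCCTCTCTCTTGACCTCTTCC
Cacna2d1 coding exon: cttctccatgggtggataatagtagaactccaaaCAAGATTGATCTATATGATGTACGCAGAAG

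Cacna1c, Cacnb2 and Cacna2d1 carried over 0.5 peaks per kb of gene body in each replicate, and the remaining genes fewer. Shared peaks lay mostly in Cacna1c, with 31 of the 54, against 23 in the other 9 genes together. Of the 10 genes, 6 held at least 1 shared peak, against 38.7% of all 15995 genes with peaks in both replicates. Among the 3960 of these at least as long as Cacna1g, the shortest of the 10 at 65.8 kb, the share was 61.6%. The count of 6 is near that second background, so holding a shared peak does not set the subunit genes apart from other long genes.

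Cacna1c (ENSMUSG00000051331, chr6:118587240-119196418, - strand, 609.2 kb) encodes the pore of the main L-type channel of heart and brain. It held 409 peaks in replicate 1 and 401 in replicate 2, which is 0.671 and 0.658 peaks per kb. The 2 replicates differed by little, with a mean of 0.665 ± 0.00929 peaks per kb (SD, n = 2). Its 31 shared peaks came to 5.09 per 100 kb.

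Cacna1d (ENSMUSG00000015968, chr14:30039939-30491455, - strand, 451.5 kb) encodes the other neuronal L-type pore, which opens at lower voltages. It held 34 peaks in replicate 1 and 22 in replicate 2, or 0.0753 and 0.0487 peaks per kb, with 2 shared. Peaks were thus much denser in Cacna1c than in Cacna1d in each replicate. Of the Cacna1d peaks, 14 in replicate 1 and 7 in replicate 2 lay in an 11.9 kb stretch that Dcp1a overlaps on the other strand, and every one of these intervals stood on both strands in the deposited lists. How strand was given to peaks is not stated in the sources used here, so for that stretch the gene of origin cannot be told apart, and neither shared Cacna1d peak lay in it.

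The other α1 genes held no shared peak. Cacna1a (ENSMUSG00000034656, chr8:84388440-84640246, + strand, 251.8 kb), the P/Q-type pore of presynaptic terminals and Purkinje cells, had 40 peaks in replicate 1 and 46 in replicate 2, or 0.159 and 0.183 per kb. Cacna1b (ENSMUSG00000004113, chr2:24603887-24763152, - strand, 159.3 kb), the N-type pore, had 13 and 15 peaks, or 0.0816 and 0.0942 per kb. Both were sparse, and their replicates lay close together. Cacna1e (ENSMUSG00000004110, chr1:154390731-154884501, - strand, 493.8 kb), the R-type pore, had 10 peaks in replicate 1 and 14 in replicate 2, or 0.0203 and 0.0284 per kb. It was the sparsest of the 10 genes in each replicate, and neither replicate had a peak in the 25% of the gene nearest its 5′ end. Cacna1g (ENSMUSG00000020866, chr11:94408391-94474198, - strand, 65.8 kb), a T-type pore that opens near resting potential, had 16 peaks in replicate 1 and 32 in replicate 2, or 0.243 and 0.486 per kb. This was the widest spread between replicates among the 10 genes (0.365 ± 0.172 peaks per kb, SD, n = 2), and 10 of the replicate 2 peaks lay in intron 1, where replicate 1 had 2. A count of 0 shared peaks in these small sets allows, by the 95% Wilson upper bound over replicate 2 peaks, a shared percentage of up to 7.71% in Cacna1a, 20.4% in Cacna1b, 21.5% in Cacna1e and 10.7% in Cacna1g. Such intervals cover counting error only, and peaks of 1 gene are not independent.

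The α2δ genes differed from each other. Cacna2d1 (ENSMUSG00000040118, chr5:15934691-16374511, + strand, 439.8 kb), whose product binds gabapentin, held 263 peaks in replicate 1 and 247 in replicate 2, or 0.598 and 0.562 per kb, with 9 shared (2.05 per 100 kb). Cacna2d3 (ENSMUSG00000021991, chr14:28904943-29721864, - strand), the longest of the 10 at 816.9 kb, held 53 and 47 peaks, or 0.0649 and 0.0575 per kb, with 2 shared. The denser α2δ gene was thus not the longer one.

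The β genes also differed. Cacnb2 (ENSMUSG00000057914, chr2:14603088-14987908, + strand, 384.8 kb), the β subunit best known from cardiac L-type channels, held 265 peaks in replicate 1 and 244 in replicate 2, or 0.689 and 0.634 per kb, with 9 shared (2.34 per 100 kb). Cacnb4 (ENSMUSG00000017412, chr2:52428320-52676831, - strand, 248.5 kb), the β subunit mutated in the lethargic mouse, held 36 and 54 peaks, or 0.145 and 0.217 per kb, with 1 shared.

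**Figure D1:**
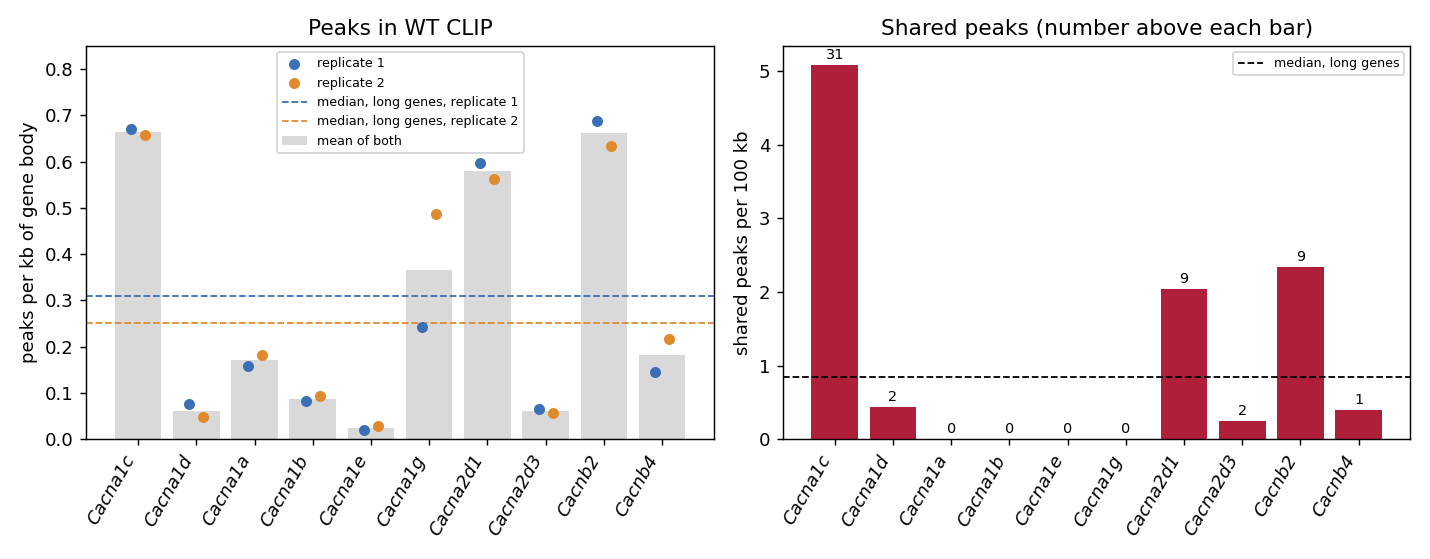
Peaks per kb of gene body in WT CLIP replicates 1 and 2 with their mean (left) and shared peaks per 100 kb with the number above each bar (right), by gene. Dashed lines are medians over the 3960 long genes. Cacna1c, Cacnb2 and Cacna2d1 stand above 0.5 peaks per kb in both replicates, and Cacna1c alone reaches 5.09 shared peaks per 100 kb.

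Ordered by mean density, the genes ran Cacna1c, Cacnb2, Cacna2d1, Cacna1g, Cacnb4, Cacna1a, Cacna1b, Cacna1d, Cacna2d3 and Cacna1e. The replicate ranges of Cacna1c and Cacnb2 (0.661 ± 0.0386 peaks per kb, SD, n = 2) overlapped, so those neighbours did not differ beyond their spread. Cacna2d1 (0.580 ± 0.0257) was below both in each replicate. The ranges of Cacnb4 and Cacna1a overlapped, as did those of Cacna1d and Cacna2d3. Replicate 1 and 2 densities over the 10 genes had Spearman's rho 0.964 and Pearson's r 0.948, with gene length common to both values.

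Against other long genes the subunit genes were mixed. A density of at least 0.5 per kb in both replicates was held by 3 of the 10, against 24.7% of the long genes, which is a similar share. The median density of the other 9 subunit genes was 0.145 per kb in replicate 1 and 0.183 in replicate 2, against 0.309 and 0.251 over the long genes. Those long genes are shorter, with a median length of 122.5 kb against 384.8 kb. Genes of 304.6 to 1218 kb had lower medians than the other 9, of 0.103 and 0.124 per kb, though not all of the 9 are that long. Of the 3960 long genes, 1084 were denser than Cacna1c in replicate 1, 775 in replicate 2, and 353 had more shared peaks per kb. Among the 546 genes of 0.5 to 2 times the length of Cacna1c (304.6 to 1218 kb) with peaks in both replicates, 86 were denser in replicate 1, 76 were denser in replicate 2 and 20 had more shared peaks per kb. Cacna1c was therefore dense for a gene of its length, with medians over those 546 genes of 0.103 and 0.124 peaks per kb and 0.349 shared peaks per 100 kb. The genes of that length class closest to it in shared peaks per kb were Runx2 with 16 shared (5.02 per 100 kb), Camkmt with 19 (5.16) and Nhs with 17 (5.21).

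The share of peaks found again in the other replicate was higher in Cacna1c than in the other 9 genes combined. In Cacna1c, 31 of 401 replicate 2 peaks were shared, or 7.73% (95% Wilson interval 5.50% to 10.8%), against 23 of 721, or 3.19% (2.13% to 4.74%), in the other 9 genes. Over all genes with peaks in both replicates the share was 4.81%, and over the 10 subunit genes it was also 4.81%, with Cacna1c above that value and the other 9 genes together below it. Counted from replicate 1, 7.33% of Cacna1c peaks had a shared partner, against 3.15% in the other 9 genes. The next largest sets were Cacnb2, at 3.69% (1.95% to 6.86%), and Cacna2d1, at 3.64% (1.93% to 6.78%). Cacna1d had the highest share, 9.09%, but from 2 of 22 peaks, with an interval of 2.53% to 27.8% that covers the shares of Cacna1c, Cacnb2 and Cacna2d1. The intervals of Cacna1c, Cacnb2 and Cacna2d1 overlapped as well. All these intervals take peaks as independent, which they are not: 11 of the 31 shared Cacna1c peaks lay within 500 nt of another. With reciprocal 50% overlap, the Cacna1c share was 5.74%, nearer to the 4.81% of all genes.

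**Figure D2:**
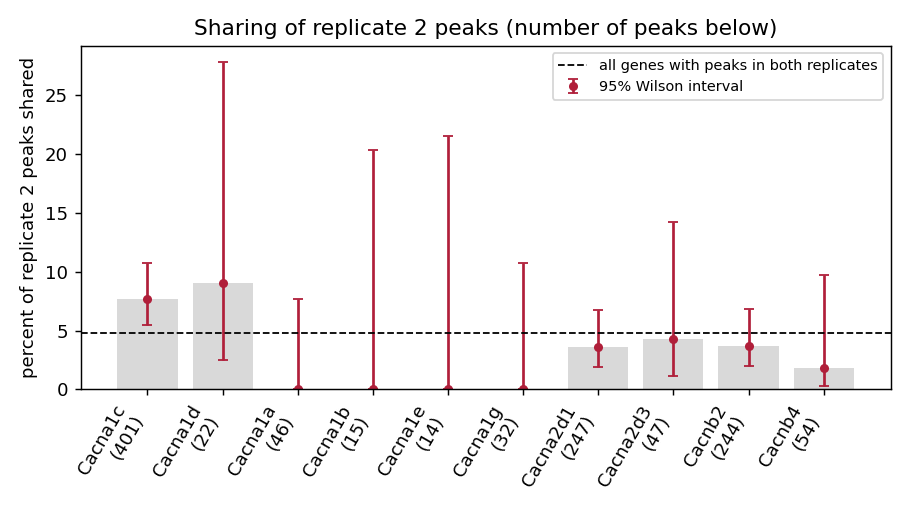
Percent of replicate 2 peaks that were shared, by gene, with 95% Wilson intervals over peaks and the number of replicate 2 peaks below each name. Cacna1c, at 7.73%, has an interval wholly above the dashed line at 4.81% for all genes, and the intervals of the other genes reach across that line. The intervals take peaks as independent, but 11 of the 31 shared Cacna1c peaks lay within 500 nt of another. The Cacna1c interval is therefore too narrow to set the gene apart from the line.

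Of the 977 long genes with at least 0.5 peaks per kb in both replicates, the median share was 4.69%, with quartiles of 2.96% and 6.76%. Cacna1c lay above the upper quartile, and 159 of the 977 had a higher share. Cacnb2 and Cacna2d1 lay between the quartiles below the median, with 620 and 627 genes higher. In shared peaks per 100 kb, Cacna1c was above the median of these dense genes (3.60), with 293 of them higher, and Cacnb2 and Cacna2d1 were below it.

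Near coincidence was higher in Cacna1c than in the other 9 genes combined, but this measure rises with the density of replicate 1 peaks. That density was 0.671 per kb in Cacna1c, against a median of 0.145 in the other 9 genes. The part of density in the contrast was not tested, and the dense long genes were not computed apart. In Cacna1c, 110 of 401 replicate 2 peaks (27.4%) lay within 100 nt of a replicate 1 peak, against 102 of 721 (14.1%) in the other 9 genes, 20.4% in long genes and 21.2% in all genes. By gene, Cacna1d had 5 of 22 such peaks (22.7%), Cacna2d1 48 of 247 (19.4%) and Cacnb2 39 of 244 (15.98%). Cacnb4 had 3.70%, and in Cacna1b no replicate 2 peak was that near.

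**Figure D3:**
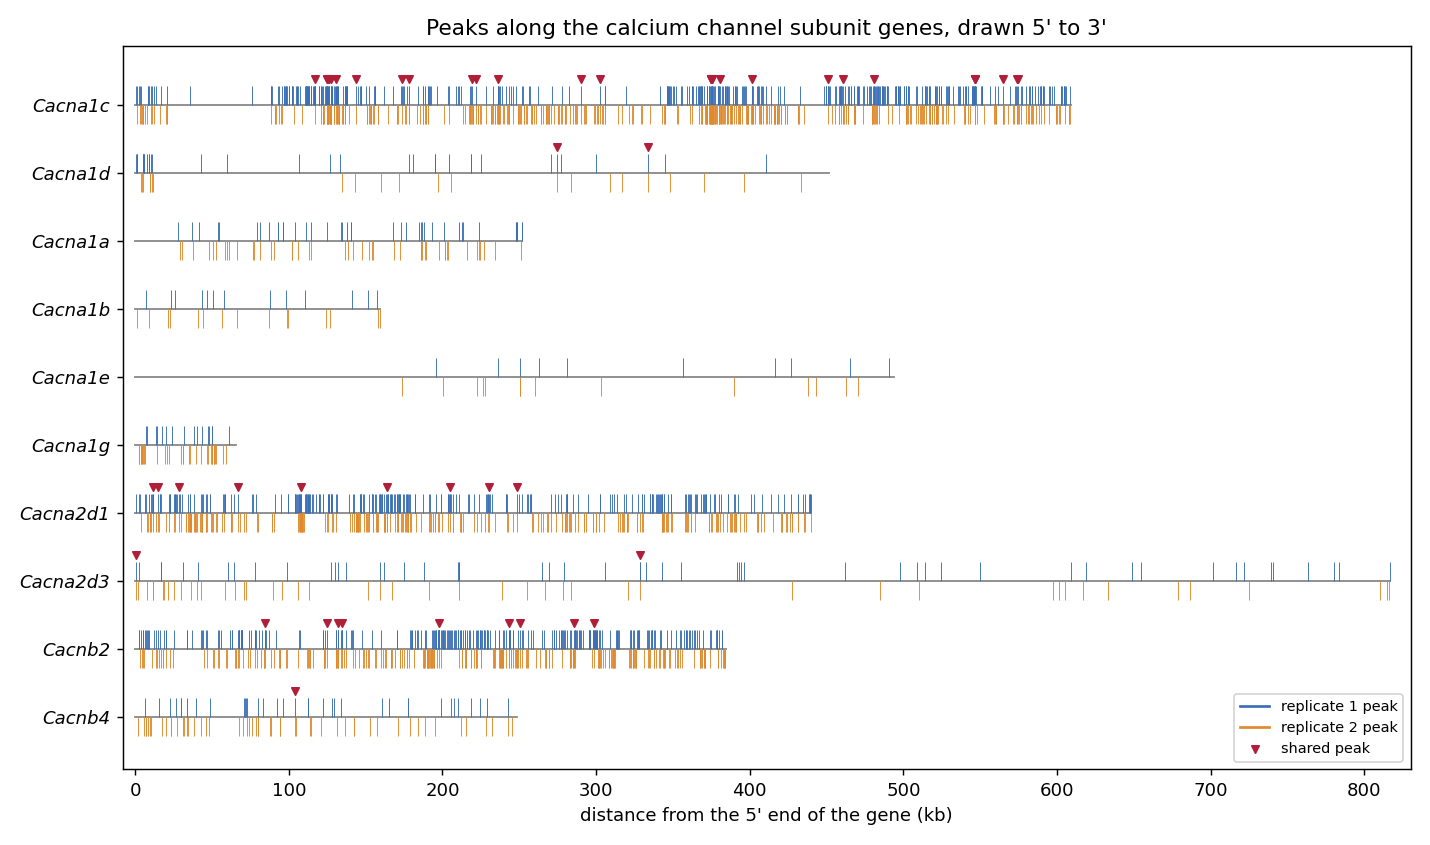
Peaks along the 10 genes drawn 5′ to 3′, with distance from the 5′ end of the gene in kb, replicate 1 above and replicate 2 below each line and triangles for shared peaks. Peaks of Cacna1c, Cacna2d1 and Cacnb2 run along nearly the whole gene, and those of Cacna1e begin far from its 5′ end.

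Within Cacna1c, peaks lay throughout the gene rather than in 1 place. In 4 equal stretches of the gene from 5′ to 3′, replicate 1 had 109, 54, 102 and 144 peaks and replicate 2 had 63, 111, 121 and 106. The replicates thus differed in where they were densest, with the last stretch highest in replicate 1 and the one before it in replicate 2. Introns are numbered here on transcript Cacna1c-207, which has 47 exons. Intron 3, of 272.3 kb and 44.7% of the transcript span, held 149 peaks in replicate 1 (36.4%) and 212 in replicate 2 (52.9%). Intron 1, of 138.6 kb and 22.8% of the span, held 102 (24.9%) and 59 (14.7%). Replicate 1 was therefore denser in intron 1 (0.736 peaks per kb, against 0.547 in intron 3), and replicate 2 was denser in intron 3 (0.779 peaks per kb, against 0.426 in intron 1).

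Shared peaks of Cacna1c were in 8 of its 46 introns. Intron 3 held 15 and intron 1 held 7, together 22 of 31 (71.0%), against 67.5% of the span, so these introns held about as many as their length. Intron 29 held 3, intron 34 held 2, and introns 7, 8, 9 and 30 held 1 each. Shared peaks also lay in runs, defined as shared peaks at most 500 nt apart. Of the 31, 11 (35.5%) were in 3 runs: 5 peaks over 832 bp in intron 3, 3 peaks over 581 bp in intron 1 and 3 peaks over 443 bp in intron 29. None of the 23 shared peaks of the other 9 genes was in a run, against 18.8% of shared peaks in long genes. With each run counted as 1, Cacna1c had 23 shared clusters.

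**Figure D4:**
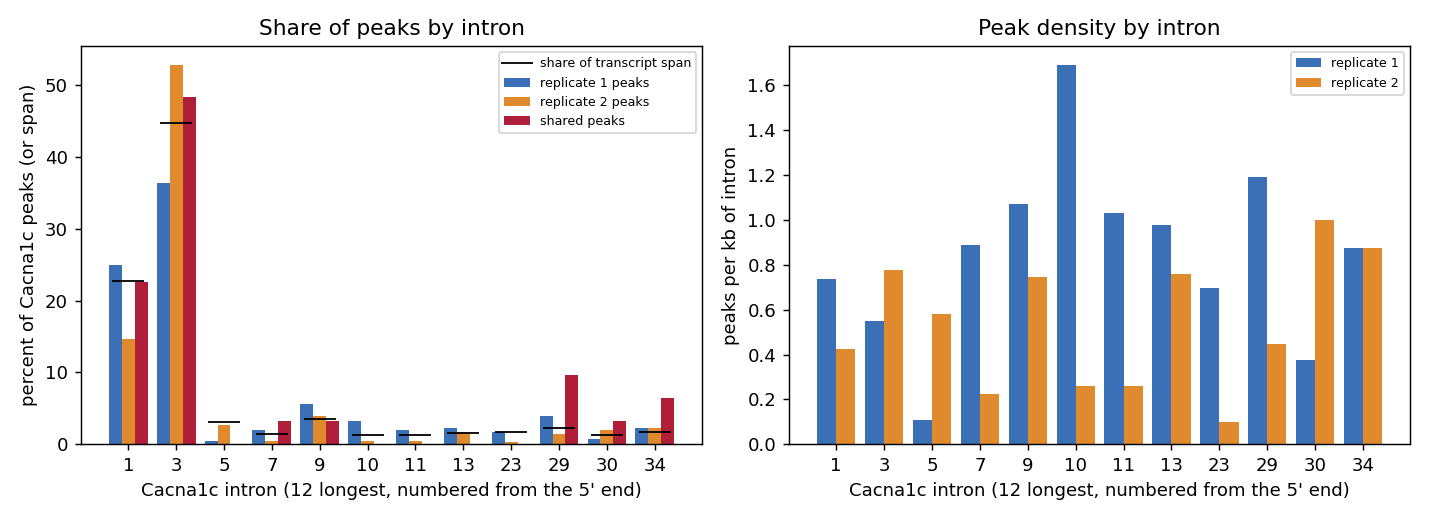
Percent of Cacna1c peaks and of shared peaks in each of its 12 longest introns with the share of the transcript span as a black line (left), and peaks per kb of each intron (right). Intron 3 holds 48.4% of shared peaks and 44.7% of the span, and replicates 1 and 2 differ in density in most of these introns.

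In the other genes with shared peaks, long introns near the 5′ end held most of them. In Cacnb2, intron 2, of 260.4 kb, held 162 peaks in replicate 2 and 7 of the 9 shared peaks. Intron 3, of 83.9 kb, held 75 peaks in replicate 1, 59 in replicate 2 and the other 2 shared peaks. Intron 2 is 67.9% of the Cacnb2 span and held 159 of 265 peaks in replicate 1 and 66.4% of peaks in replicate 2, a share somewhat under or close to its length. In Cacna2d1, shared peaks were in intron 1 (4 of 9), intron 3 (3) and intron 4 (2). Its intron 3 is 31.2% of the span and held 44.5% of peaks in replicate 1 and 35.2% in replicate 2, more than its length in each. The shared peak of Cacnb4 was in intron 2, which is 79.6% of that gene's span. Those of Cacna1d were in introns 3 and 8, and those of Cacna2d3 in introns 1 and 5.

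Most of the 54 shared peaks were deep in introns. Of them 48 were over 1 kb from the nearest annotated exon of the gene, with a median distance of 9.36 kb in Cacna1c and 11.5 kb in the other 9 genes. Such distances were not computed for other long genes. The closest in each set were near splice sites: a Cacna1c peak at chr6:119052468-119052497, 0.118 kb past the 5′ splice site of intron 3 (folds 6.70 and 4.20), and a Cacna2d3 peak at chr14:29721073-29721102, 0.135 kb before the 3′ splice site of intron 1 (folds 1.95 and 1.92). The Cacna1c peak was chosen after its value was seen. Of the 54, 3 lay under a gene on the other strand, all in Cacnb2, and no shared interval stood on both strands. That does not settle the gene of origin of those 3. Cacnb2 had 22 peaks in replicate 1 and 38 in replicate 2 under such genes, and 0 on both strands in each. In Cacna1c, a 21.2 kb stretch under Dcp1b held 14 peaks in replicate 1 and 15 in replicate 2 and none of the shared ones. Over the whole gene, 14 intervals in replicate 1 and 16 in replicate 2 stood on both strands. Their gene of origin cannot be told apart.

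The fold of a peak is the authors' ratio of pileup over background for that peak in its library, and it ranks peaks within a list. The highest-fold shared peak of the 10 genes in both replicates together was in intron 1 of Cacna1c, at chr6:119070207-119070346. It was 138 bp wide in replicate 1 and 140 bp in replicate 2, with 137 bp in common, folds of 10.5 and 10.1 and a −log10 p of 19.0 in each. The next was in intron 3 at chr6:119022701-119022761, with a fold of 13.6 in replicate 1 and 6.63 in replicate 2. The third within Cacna1c by its lower fold was in the run of 5 in intron 3, at chr6:118821657-118821696, with folds of 4.80 and 4.69. Only the leading pair had a fold of at least 5 in both replicates, 2 of 31 (6.45%) in Cacna1c and 0 of 23 in the other 9 genes, against 5.54% of shared peaks in all genes. The Cacna1c share is thus near the background.

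In Cacna1d, a shared peak at chr14:30157689-30157724 in intron 8 had folds of 4.88 and 4.81, the highest in any peak of that gene, and one at chr14:30216993-30217022 in intron 3 had 2.93 and 3.84. This sparse gene thus had the same interval as its highest peak in each replicate. In Cacnb2 the leading shared peaks were at chr2:14687647-14687721 (4.79 and 4.55), chr2:14800770-14800799 (2.84 and 3.37) and chr2:14853554-14853583 (2.91 and 1.89), all in intron 2. In Cacna2d1 they were at chr5:16042499-16042541 in intron 3 (2.84 and 2.74), chr5:15946192-15946221 in intron 1 (1.93 and 2.38) and chr5:16165062-16165091 in intron 4 (1.95 and 1.92). The Cacnb4 peak at chr2:52572552-52572581 had folds of 2.93 and 1.92. The other Cacna2d3 peak, at chr14:29393275-29393304, had 1.95 and 1.92.

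**Figure D5:**
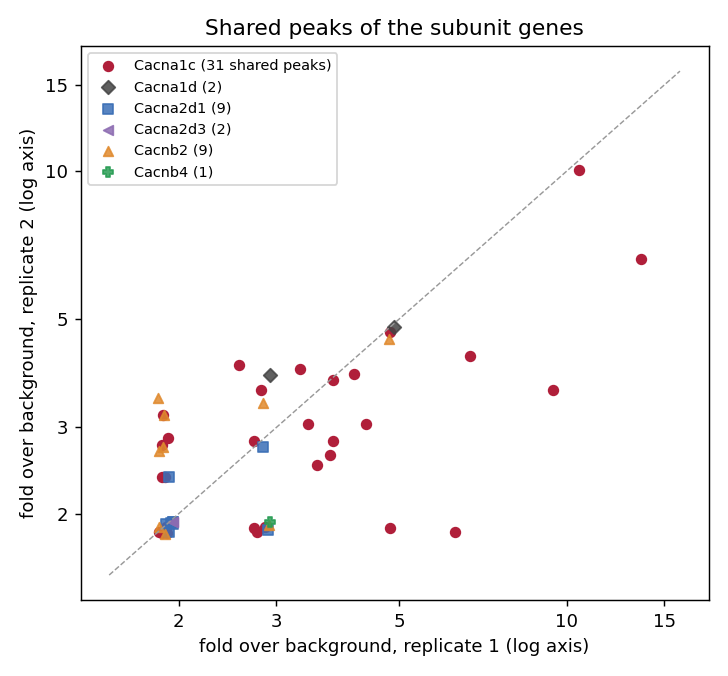
Fold over background of each of the 54 shared peaks in replicate 1 (x) and replicate 2 (y), both on log axes, with the dashed line at equal folds. Peaks of Cacna1c spread up to 13.6 and 10.1, and most peaks of Cacna2d1 and both of Cacna2d3 lie near 2 in both replicates.

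Folds of shared peaks were higher in Cacna1c, with a median lower fold of 2.51, against 1.92 in the other 9 genes and 1.92 in all genes. A fold under 2 in both replicates was found for 5 of 31 shared Cacna1c peaks (16.1%), against 10 of 23 (43.5%) in the other 9 genes and 37.4% in all genes. Shared peaks wider than the least width of 30 bp in both replicates were 10 of 31 (32.3%) in Cacna1c, against 4 of 23 (17.4%) in the other 9 genes and 21.7% in all genes.

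Over all peaks, the median fold of Cacna1c was 1.91 in replicate 1 and 2.51 in replicate 2, against 1.95 and 1.92 in the other 9 genes and 1.93 and 1.92 in all genes. Cacna1c was thus higher by the median in replicate 2 and slightly lower in replicate 1. A fold under 2 was held by 62.1% of Cacna1c peaks in replicate 1 and 39.4% in replicate 2, against 79.9% and 72.5% in the other 9 genes and 76.6% and 69.4% in all genes. Cacnb2 was close to Cacna1c, with 67.9% and 44.7%, and Cacna2d1 was not, with 84.8% and 83.8%. Peaks with a fold of at least 5 were found only in Cacna1c (10 in replicate 1 and 7 in replicate 2) and Cacnb2 (2 and 2) among the 10 genes. The highest fold in any other member was 4.88, in Cacna1d.

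Many low-fold peaks had exactly the same value. The commonest fold was 1.95 in replicate 1 (16.6% of all peaks) and 1.92 in replicate 2 (27.2%). All 10 replicate 1 peaks and all 14 replicate 2 peaks of Cacna1e had it, as did 52 of 53 and 40 of 47 in Cacna2d3, and 30 of 36 and 50 of 54 in Cacnb4. Among the dense genes, Cacna2d1 had 49 and 66 such peaks, but Cacna1c had only 6 and 2, and Cacnb2 only 4 and 7. Cacna1c and Cacnb2 therefore had another distribution of folds from Cacna2d1 at a similar density. Higher folds came in stretches, named after their values were seen. In replicate 1, every Cacna1c peak from 144.0 to 341.8 kb from the 5′ end had a fold of at least 2. So did every Cacnb2 peak from 12.2 to 67.4 kb, and folds under 2 lay on either side of both stretches. How far local background sets these fold contrasts, here and for shared peaks, was not tested. Among replicate 2 peaks of Cacna1c, 8.64% of those with a fold of at least 2 were shared and 6.33% of those under 2. In the other 9 genes these were 5.05% and 2.49%, so Cacna1c was higher than those genes in each fold class. Over all genes with peaks in both replicates they were 8.11% and 3.35%. Cacna1c was thus close to all genes at folds of at least 2 and above them only at folds under 2.

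Exonic peaks were few and unshared. Of all peaks of the 10 genes, 51 in replicate 1 (4.48%) and 47 in replicate 2 (4.19%) had their midpoint in an annotated exon of the gene. The exonic share over all genes was not computed. Whether few exonic peaks, or none shared, is particular to these 10 genes therefore cannot be said. In Cacna1c there were 18 in each replicate. Those of replicate 1 were 8 in the 3′ UTR, 2 in the 5′ UTR, 5 in coding sequence and 3 in exons of non-coding transcripts, and those of replicate 2 were 4, 0, 11 and 3. Cacna1d had no exonic peak. Within 100 nt of each other, 8 pairs of exonic peaks from the 2 replicates were found, 3 in Cacna1c, 2 in Cacna2d1, 2 in Cacnb2 and 1 in Cacna1g, and only the 2 Cacna1c pairs whose sequences are printed above overlapped. Outside Cacna1c and Cacna2d1, the nearest exonic pair was 66 nt apart, in a non-coding Cacnb2 transcript.

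The remaining 16 voltage-gated calcium channel genes held 92 peaks in replicate 1 and 107 in replicate 2. Of these genes, 14 had peaks in both replicates and 2 had a shared peak: Cacna1i, another T-type pore, with 1 of 8 replicate 2 peaks, and Cacng8, a γ subunit known for its part in AMPA receptor complexes, with 1 of 17. Over all genes with peaks in both replicates, 38.7% held a shared peak. The median density was 0.0701 peaks per kb in replicate 1 and 0.0731 in replicate 2. Cacnb1, the β subunit of skeletal muscle channels, was the densest of the 16, with 13 peaks in replicate 1 and 28 in replicate 2 (0.604 and 1.30 per kb) and none shared. Cacng7 (0.539 and 0.595 per kb) and Cacng8 (0.521 and 0.681 per kb) were also above 0.5 peaks per kb in both replicates, so that 3 of the 16 were.

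CLIP peaks depend on how much RNA of a gene the cells hold, and expression was not measured in the values used here, so the part of expression in these densities was not tested. Of 9 neuronal marker genes, 7 had peaks in both replicates, led by Map2 with 212 and 94, and 3 had a shared peak, while Nefl had no peak. Peaks in both replicates were also found in 2 of 4 neural progenitor, 3 of 4 astrocyte, 3 of 4 oligodendrocyte and 3 of 4 microglial markers and in 1 of 4 muscle markers. A shared peak was held by 1 of 4 markers in each of these sets except muscle, which had none. Among all genes with peaks in both replicates 38.7% held one. The astrocyte marker Slc1a3, a glutamate transporter gene, had 67 peaks in replicate 1 and 51 in replicate 2 (0.874 and 0.665 per kb) with 2 shared. Mbp, of oligodendrocytes, and Cx3cr1, of microglia, had 1 shared peak each. Gfap, of astrocytes, Olig1, of oligodendrocytes, and Myh6, of heart muscle, had no peak in either replicate. Gfap and Olig1 are short genes, of 13.6 and 2.16 kb, so a lack of peaks there says little. Peaks are not a measure of expression, and these counts do not name the cells.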

How the data were processed

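RNA from WT mHippoE-2 cells was measured by iCLIP. Per the submitters' processing notes, the build was mm10 and the tools named are MACS2 2.1.1.20160309, Novoalign 3.09.00, deepTools 3.2.1, HOMER 4.11.1 and bedtools 2.25.0, with no order or settings. The authors deposited peaks per library, with a p threshold of 0.005 in the peak names. For every deposited peak there is a score, a fold (the authors' ratio of pileup over background) and the −log10 p of their caller. The caller's control and the source of each peak's strand were not given in the sources used here. Repeated lines were removed (267229 of 654978 in replicate 1, 237090 of 581790 in replicate 2). Of the distinct peaks 84.0% and 83.4% had the least width of 30 bp. The deposited shared list held 16399 pairs, all equal to those recomputed as covering at least 50% of the replicate 2 peak.

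Peaks were placed by midpoint on GENCODE M21 gene records of the same strand. Distances, runs (gaps of at most 500 nt), densities and Wilson 95% intervals were computed with pandas 2.3.3, numpy 2.4.6, scipy 1.17.1 and matplotlib 3.10.9 in Python 3.11.15. Only the code that finds overlaps and places peaks on genes was tested on simulated intervals. Depth is unknown, so intervals cover counting error over peaks only. A deposited table of counts over shared peaks was not used: the names of its 16 library columns, its summary included, match no sample's labels, so the planned Mettl3 knockout comparison was not run. A genome sequence was not used here.

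The members, lists and alternatives were chosen with earlier results of these data known. Named were all 10 members, the 3 shared peaks of each with the highest lower fold (all where fewer) and any exonic shared peak. The rule also allowed genes of lists of other calcium, calcium release and sodium channels, given here mostly as counts and medians, and the 3 genes of 0.5 to 2 times the length of Cacna1c closest in shared peaks per kb. Exonic pairs and peaks near splice sites were named after their values were seen.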

Additional observations from a re-analysis of the deposited data

How the results depend on the processing

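Of 51 values recomputed under alternatives, 42 stayed within the limits and 9 moved. For densities and the share of intron 3, the limits were 1 SD of the replicates around their mean. Either of 2 replicates always lies within 1 SD of their mean. The values from 1 replicate alone, counted among the 42, therefore could not move and say nothing about stability. With only peaks of −log10 p of at least 4 in each list, shared peaks were 10 in Cacna1c and 4 in the other 9 genes, the density of Cacna1c was 0.169 peaks per kb and the median of the other 9 genes 0.0143, intron 3 held 57.0% of Cacna1c peaks, and 3 members held a shared peak in place of 6. With at least 1 bp of overlap, shared peaks were 48 in Cacna1c (11.97% of replicate 2 peaks) and 37 in the other 9 genes (5.13%), and 7 members held one. With reciprocal 50% overlap they were 23 and 22, so that the count of Cacna1c was then close to that of the other 9 genes, with 5.74% of replicate 2 peaks shared in Cacna1c and 3.05% in the other 9 genes. Alternatives added after seeing the data left out the stretch under Dcp1b (31 shared peaks in Cacna1c) or counted each run as 1 (23). Placing peaks by any overlap, ignoring strand or using basic transcript spans changed no shared count. Ignoring strand also left the density of Cacna1c at 0.665 peaks per kb, so no interval in its body stood on the other strand alone. The strand of a peak there thus added nothing to its position outside the intervals on both strands. How strand was assigned was not tested, so placement on the gene's strand is not by itself evidence of the gene of origin. From 1 replicate alone, the density of Cacna1c was 0.658 to 0.671 peaks per kb and the median of the other 9 genes 0.145 to 0.183, and intron 3 held 36.4% to 52.9% of Cacna1c peaks. Sharing needs both replicates and has no such value. The cause of these shifts was not tested. No paired analysis was possible because the columns of the deposited count table carry no replicate labels of these samples, and the planned knockout comparison and its 4 alternatives were not run.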

Other observations

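Among channels of intracellular calcium stores and calcium-linked channels, 3 of 8 genes held a shared peak. That is near the 38.7% of all genes with peaks in both replicates, and the share of long genes was 61.6%. The inositol trisphosphate receptor genes Itpr1 and Itpr2 were denser than Cacna1c in replicate 2. Itpr1 had 254 peaks in replicate 1 and 283 in replicate 2 (0.751 and 0.837 per kb) with 14 shared (4.14 per 100 kb), and Itpr2 had 232 and 301 (0.589 and 0.764 per kb) with 13 shared (3.30 per 100 kb). Itpr3 was denser still, with 64 and 71 peaks (0.986 and 1.09 per kb), but none was shared. The ryanodine receptor genes, which encode the other family of store release channels, were sparse: Ryr3 had 68 and 105 peaks (0.116 and 0.179 per kb), Ryr2 had 37 and 27, and Ryr1 had 9 and 12, with none shared. Kcnma1, a calcium-activated potassium channel gene, had 24 and 22 peaks over 725.1 kb with none shared, and the sodium leak channel gene Nalcn had 15 and 21 with 2 shared.

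Of 13 voltage-gated sodium channel genes, 9 had peaks in both replicates and 3 had a shared peak. The share over all genes with peaks in both replicates was 38.7%. The list medians were 0.0454 peaks per kb in replicate 1 and 0.0633 in replicate 2. No difference between these lists was tested.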
